A study of Mus musculus with 10 samples.

Results

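Binding of the transcription factor SOX9 was set against gene expression level in mouse hair follicle stem cells (HFSCs). A gene was called occupied when a SOX9 peak present in both HFSC peak lists (an overlap of at least 1 bp) lay within 10 kb of its locus, the interval given as its coordinates in the deposited expression table (mouse build mm9). By this rule 3547 of 37298 gene rows were occupied, which is 9.51% of all rows. The question was how the share of occupied genes, and the number of peaks per gene, depended on the expression of the gene in control cells, including genes listed at 0.

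SOX9 belongs to the HMG-box regulators, whose DNA-binding domain sits in the minor groove and bends the DNA. It is best known as a determinant of cartilage and testis, and in skin it marks the bulge, the niche at the base of the resting hair follicle where HFSCs reside, and is required for these cells. A chromatin immunoprecipitation and sequencing (ChIP-seq) peak is a stretch of DNA that was recovered with an antibody more often than its surroundings; it shows where the protein was found, not which gene it serves.

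The 2 SOX9 ChIP libraries came from untreated CD-1 females aged 52 to 60 days, sorted from telogen (resting phase) back skin as integrin α6hi, CD34+ and ScaI- cells, with the Millipore antibody AB5535. The 2 RNA libraries are the study's controls, on a mixed C57BL6 background, sorted with the same markers and for YFP. Control 1 came from a male of 75 days given RU486 from day 48 to day 61, and control 2 from a female of 80 days given it from day 53 to day 66; RU486 activates CrePGR, a Cre recombinase under hormone control whose promoter is not named in the labels. Titles call the controls Sox9 Het and the genotype field calls them wild type, so the labels do not settle whether the control cells lack a Sox9 allele. ChIP and RNA therefore came from different mice, strains and treatments. The labels do not say how many mice made up a library. The 2 ChIP libraries may differ only technically, while the 2 controls differ in sex, age and days of treatment. A single SOX9 ChIP library of CD34- interfollicular epidermal (IFE) cells, n = 1, served as a second cell type.

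Expression is given as FPKM, fragments scaled by transcript length and by the mapped fragments of the library, so that levels of different genes can be compared per length; the read depth of each library is unknown. The bulge markers were present in both controls, with Krt15 at 9613 and 9375 FPKM, Cd34 at 652 and 680 FPKM and Sox9 itself at 82.7 and 46.5 FPKM. The 4 endothelial markers summed to 0.167 and 0.137 FPKM and the 5 melanocyte markers to 2.08 and 1.95 FPKM, with the endothelial marker Cdh5 listed at 0 in both. Other types were detected: the 4 sebocyte markers summed to 150 and 76.2 FPKM, the 5 immune markers to 32.8 and 77.8 FPKM, most of it Cd74, and the 6 fibroblast markers to 16.9 and 8.64 FPKM, most of it Col1a2; none of these was occupied. Rows of 6 markers of interfollicular and differentiated epidermis summed to 2708 FPKM in control 1 and 7387 FPKM in control 2, none of them occupied; the part of such cells in the results was not tested. Bins of expression were assigned alike in both controls for 73.0% of rows and at most 1 bin apart for 96.1%. A gene at 0 is described only as listed at 0, since Ndufb8, a respiratory chain subunit that cells in general use, stood at 1.61 FPKM in control 1 and is listed at 0 in control 2.

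HFSC list 1 holds 8181 peaks and list 2 holds 2989. The 2047 list 1 peaks that overlapped a list 2 peak, the shared peaks, made up 25.02% of list 1, and their 2049 partners made up 68.6% of list 2. Shared peaks had a median width of 739 bp. Within 10 kb of a locus lay 1641 of them (80.2%), and 406 lay farther away. The lists give no peak height, so every shared peak counts alike.

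Many gene rows do not have an interval of their own. The coordinates of 14454 rows were shared with at least 1 other row, because overlapping or chained genes carry the span of the whole group: the widest span, chr8:122434259-126869624 (4435 kb), is given to 159 rows and holds 12 shared peaks. Of the 3547 occupied rows, 2290 (64.6%) shared coordinates in this way, and of the 529 occupied rows listed at 0, 426 did. Results are therefore also given for the 22844 genes with coordinates of their own, of which 1257 (5.5%) were occupied, and for the 28050 distinct loci counted once by their highest expression, of which 1956 (6.97%) were occupied. Both were added after this sharing was seen.

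SOX9 occupancy was higher in each step of expression, with 1 tie. Among all rows the share occupied was 3.88% of 13646 genes listed at 0, 6.01% of 4646 genes above 0 and below 0.1 FPKM, and 10.2% of 4526 genes from 0.1 to 1 FPKM. It was also 10.2% of 3780 genes from 1 to 5 FPKM, then 14.9% of 5572 genes from 5 to 20 FPKM, 20.3% of 4016 genes from 20 to 100 FPKM and 22.0% of 1112 genes at 100 FPKM and above. All genes at 5 FPKM and above were occupied in 17.7% of 10700 cases, against 3.88% of genes listed at 0, a difference of 13.8 percentage points (95% interval 13.0 to 14.6). These intervals and those below are exact (Clopper-Pearson) for shares and normal for differences, treat genes as independent although neighbours share peaks, and cover counting error only; with 2 libraries and 2 lists no test over samples was possible.

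Without shared coordinates the shares were lower in every bin, and lowest in proportion for genes listed at 0. Of genes with coordinates of their own, 103 of 9534 listed at 0 were occupied, which is 1.08% (interval 0.883 to 1.31). The share was 2.25% above 0 and below 0.1 FPKM, 4.75% from 0.1 to 1, 5.84% from 1 to 5, 11.1% from 5 to 20 and 16.4% from 20 to 100 FPKM. At 100 FPKM and above it was 18.2% (126 of 693, interval 15.4 to 21.3). The intervals of the bins from 0.1 to 1 and from 1 to 5 FPKM overlapped, as did those of the top 2 bins, and all other neighbours were apart. The ratio between genes at 5 FPKM and above (13.8%) and genes listed at 0 (1.08%) was 12.8 here and 4.57 over all rows, while the difference was 12.8 points here and 13.8 points over all rows. Counting each locus once gave 1.06% at 0 and 21.3% at 100 FPKM and above.

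**Figure D1:**
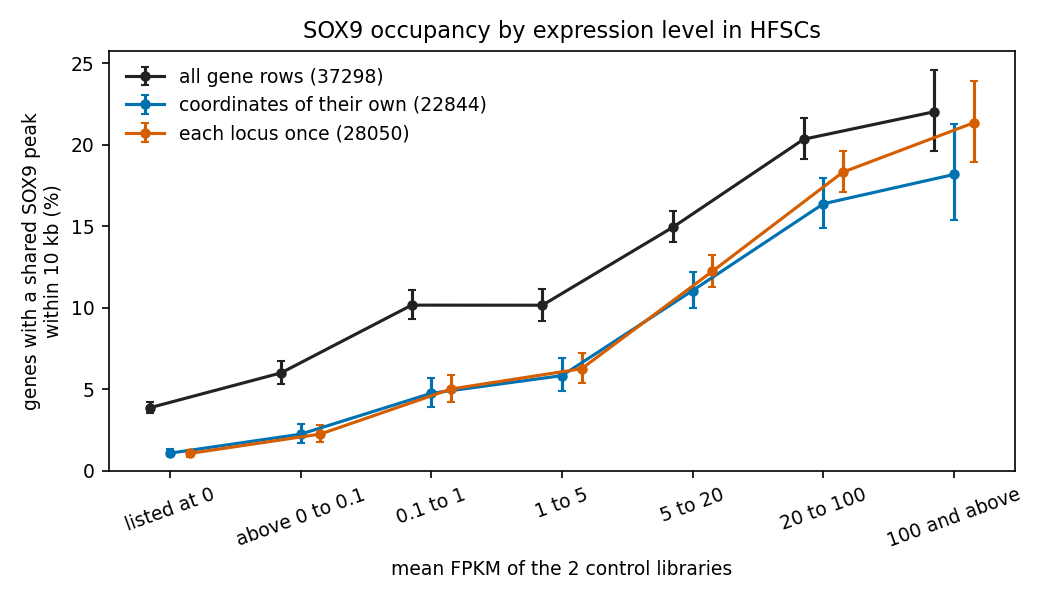
Share of genes with a shared SOX9 peak within 10 kb (y axis, percent) by bin of mean control FPKM (x axis) for all gene rows, genes with coordinates of their own and loci counted once; bars are exact 95% intervals. The lines of the last 2 start near 1.1% for genes listed at 0 and reach 18.2% and 21.3%, while the line of all rows starts at 3.88%.

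The order of the bins was kept in each control library alone, apart from the bins around 1 FPKM in control 1. With control 1, the share among genes with their own coordinates was 1.13% at 0, 2.13%, 5.27%, 5.15%, 10.2%, 17.2% and 21.5% from the lowest to the highest bin. With control 2 the same bins held 1.27%, 2.03%, 4.76%, 7.16%, 11.8%, 15.5% and 16.2%. The libraries thus differed most at 100 FPKM and above, a bin of 535 genes in control 1 and 784 in control 2. FPKM summed to 555420 in control 1 and 786914 in control 2, so the same bin edges need not cut both at like levels. The part of this in the difference was not tested. Among genes in the same bin in both libraries the share went from 1.08% of 9534 listed at 0 to 20.6% of 475 at 100 FPKM and above, again with the bins around 1 FPKM out of order (5.29% from 0.1 to 1 and 5.14% from 1 to 5 FPKM).

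Each peak list alone gave higher shares in the same direction. Any list 1 peak lay within 10 kb of 3.53% of own-coordinate genes listed at 0 and of 31.5% of those at 5 FPKM and above, where 14.2% of all such genes had one. Any list 2 peak did so for 1.4999% and 22.5%, against 8.88% overall. In list 2 the share was 26.4% from 20 to 100 FPKM and 26.6% at 100 FPKM and above, and the top 2 bins were close.

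Among genes with coordinates of their own, peak number followed the same order as the share; over all rows it did not throughout. All rows had 0.110 shared peaks per gene at 0, 0.111 above 0 and below 0.1 FPKM, 0.184 from 0.1 to 1 FPKM and 0.151 from 1 to 5 FPKM. From there the value was 0.233 from 5 to 20, 0.292 from 20 to 100 and 0.347 at 100 FPKM and above. Genes with their own coordinates had 0.0116 shared peaks per gene at 0, 0.122 from 5 to 20 FPKM, 0.195 from 20 to 100 FPKM and 0.222 at 100 FPKM and above. At least 2 shared peaks were found at 8 genes listed at 0 (0.0839%) and at 23 genes at 100 FPKM and above (3.32%). Occupied genes with their own coordinates differed less: they held 1.08 peaks on average when listed at 0 and 1.22 at 100 FPKM and above, so most of the difference between these bins lay in whether a gene had a peak at all. Over all rows the order was the reverse, with 2.84 peaks per occupied row listed at 0 and 1.58 at 100 FPKM and above.

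Read the other way, expression was higher at genes with more peaks, up to 3. The median of mean control FPKM was 0.0228 for the 21587 own-coordinate genes with no shared peak, 12.7 for 1115 genes with 1 peak, 23.5 for 115 genes with 2 and 41.7 for 24 genes with 3. In control 1 these medians were 0.0224, 14.0, 26.1 and 54.1 FPKM, and in control 2 they were 0, 10.6, 20.5 and 27.7 FPKM. Of the genes with 1 peak, 67.2% stood at 5 FPKM or above, and of those with 3 peaks 95.8% did. Genes with 4 or more peaks broke this order. The 3 with their own coordinates (Ablim1, Gm10800 and Gm10801) had a median of 4.16 FPKM, and Gm10800 and Gm10801 share the same 4 peaks. The 261 over all rows had a median of 0.238 FPKM and a median locus of 4435 kb, the chromosome 8 span described above. Mean log2(FPKM + 1) was higher by 1.42 in occupied than in unoccupied rows, and by 2.32 among genes with their own coordinates.

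Locus length differed between the bins, and a longer locus has a wider window. The median locus of own-coordinate genes was 0.942 kb at 0 FPKM, 19.01 kb from 5 to 20 FPKM, 13.5 kb from 20 to 100 FPKM and 3.57 kb at 100 FPKM and above. After the shares were standardised to the same mix of 10 length classes, they ran from 1.15% at 0 to 19.6% at 100 FPKM and above, and shared peaks per megabase of window ran from 0.410 to 7.26. The shortest of 5 length classes, up to 0.978 kb, had the lowest share at 100 FPKM and above. There 0.9498% of 5159 genes listed at 0 and 2.73% of 220 genes at 100 FPKM and above were occupied, and the highest share, 4.56%, was in the bin from 1 to 5 FPKM. In the class from 0.978 to 8.97 kb the share went from 1.18% to 21.1%, in the class from 8.97 to 28.9 kb from 1.15% to 26.3%, and in the class from 28.9 to 88.5 kb from 1.29% to 39.6%. The longest class, from 88.5 kb, was out of order at the bottom. There 2.65% of 151 genes listed at 0 and 0.483% of 207 genes above 0 and below 0.1 FPKM were occupied. From 20 to 100 FPKM it was 38.1% of 134 genes.

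**Figure D2:**
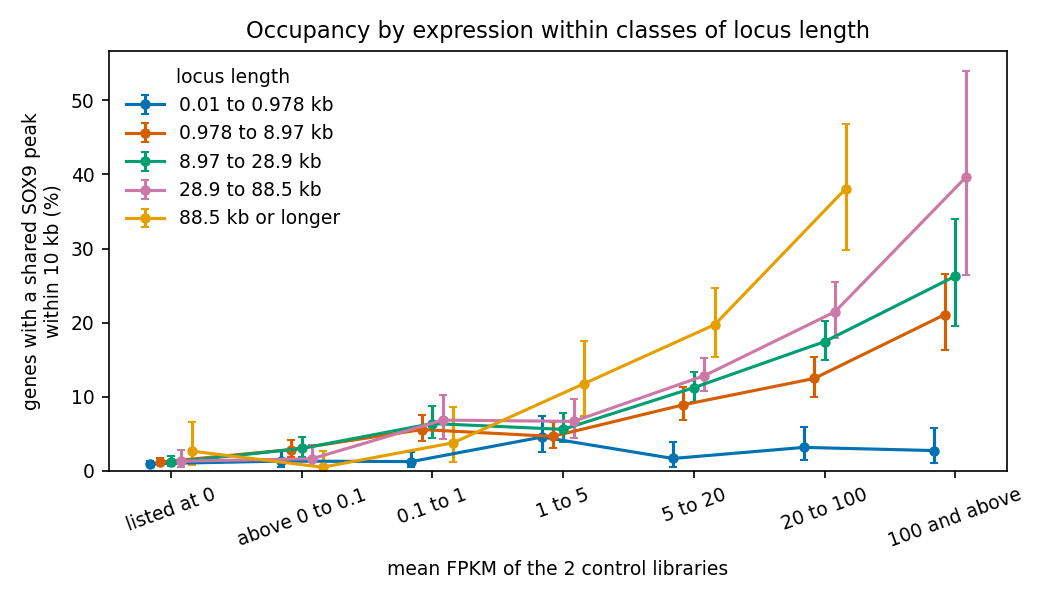
Share of own-coordinate genes with a shared SOX9 peak within 10 kb (y axis, percent) by bin of mean control FPKM (x axis), 1 line per class of locus length, with exact 95% intervals; bins of under 20 genes are left out. The shortest class stays at 4.56% or below, and the class from 28.9 to 88.5 kb reaches 39.6%.

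The same contrast held for protein-coding genes, taken by the RefSeq biotype that 30427 rows (81.6%) could be given. Among protein-coding genes with their own coordinates, 1.00% of 3899 listed at 0 and 25.9% of 456 at 100 FPKM and above were occupied. The corresponding standardised shares were 1.22% and 27.7%.

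Expressed genes were also closer to a shared peak beyond the 10 kb window. The median distance from an own-coordinate locus to the nearest shared peak was 824 kb at 0 FPKM, 346 kb from 1 to 5 FPKM, 242 kb from 5 to 20 FPKM and 142 kb at 100 FPKM and above. Within 100 kb, 9.52% of genes listed at 0 and 43.4% of genes at 100 FPKM and above had a peak. A peak overlapped the locus itself in 0.115% and 10.97% of them.

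**Figure D3:**
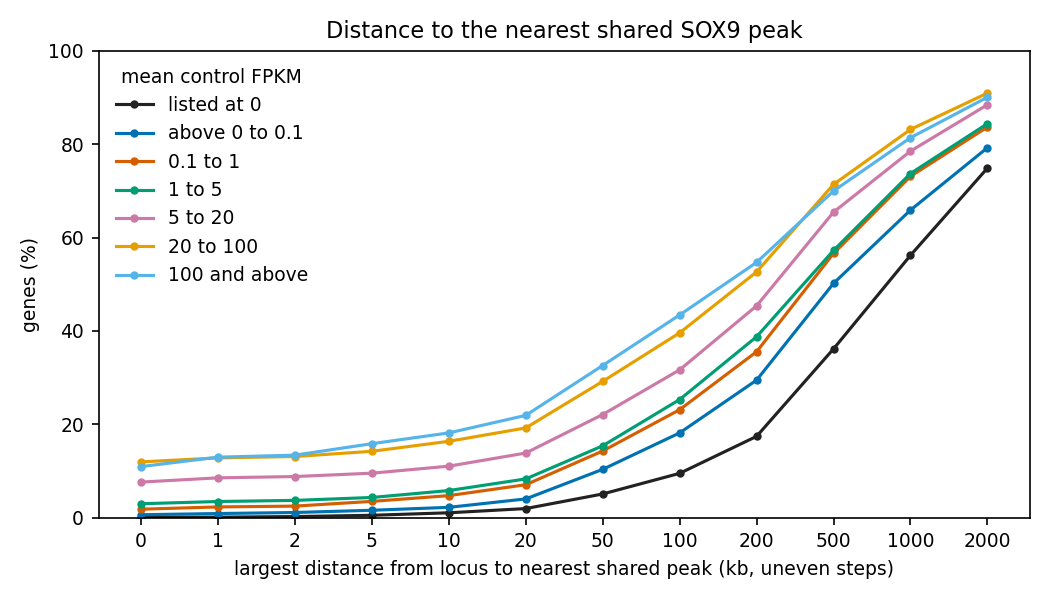
Cumulative share of own-coordinate genes (y axis, percent) whose nearest shared SOX9 peak lies within a given distance of the locus (x axis, kb, uneven steps), 1 line per bin of mean control FPKM. The line of genes listed at 0 is lowest at every distance, and the lines of the top 2 bins are close to each other.

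Genes listed at 0 with a peak often stood beside an expressed gene. Of the 9534 own-coordinate genes listed at 0, 960 had a locus of 5 FPKM or more within 10 kb. Of these 960, 6.04% were occupied (58 genes, interval 4.62 to 7.74), against 0.525% of the other 8574 (45 genes, interval 0.383 to 0.702). When each peak was given to its nearest locus alone, the share of genes listed at 0 was 0.441%, and that of genes at 5 FPKM and above was 11.2%. Seen from the peaks, 1402 of the 1641 shared peaks near a locus (85.4%) had a gene of 5 FPKM or more within 10 kb, 143 (8.71%) had no gene reaching 1 FPKM, and 41 had genes listed at 0 alone.

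Position was examined for the 11703 own-coordinate genes whose strand RefSeq gives, taking the strand to be the same in both builds and the start to be the 5′ end of the deposited locus. Of 1018 gene and peak pairs, 39.8% had the peak centre within 1 kb of the start, 24.4% inside the locus, 2.16% within 1 kb of the end, 15.6% upstream and 18.1% downstream. Expressed genes had far more peaks at the start: 1 of 39 pairs of genes listed at 0 was a start peak, against 343 of 785 pairs (43.7%, interval 40.2 to 47.2) of genes at 5 FPKM and above. Start peaks were found at 0.0277% of 3616 genes listed at 0, 6.31% of genes from 5 to 20 FPKM, 9.50% from 20 to 100 FPKM and 11.6% of 363 genes at 100 FPKM and above. In the kilobase just upstream of the start the density was 0.277 peaks per 1000 genes at 0 FPKM and 77.1 at 100 FPKM and above. For expression by position each occupied gene was placed once, by a fixed order: start, inside, end, upstream, downstream. A gene with a start peak thus counts at the start wherever its other peaks lie. Genes placed at the start had a median of 19.7 FPKM (402 genes) and those placed inside 20.3 FPKM (196 genes). Genes with upstream peaks and none of the earlier classes had 10.1 FPKM (137 genes), and those with downstream peaks alone 8.27 FPKM (144 genes).

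**Figure D4:**
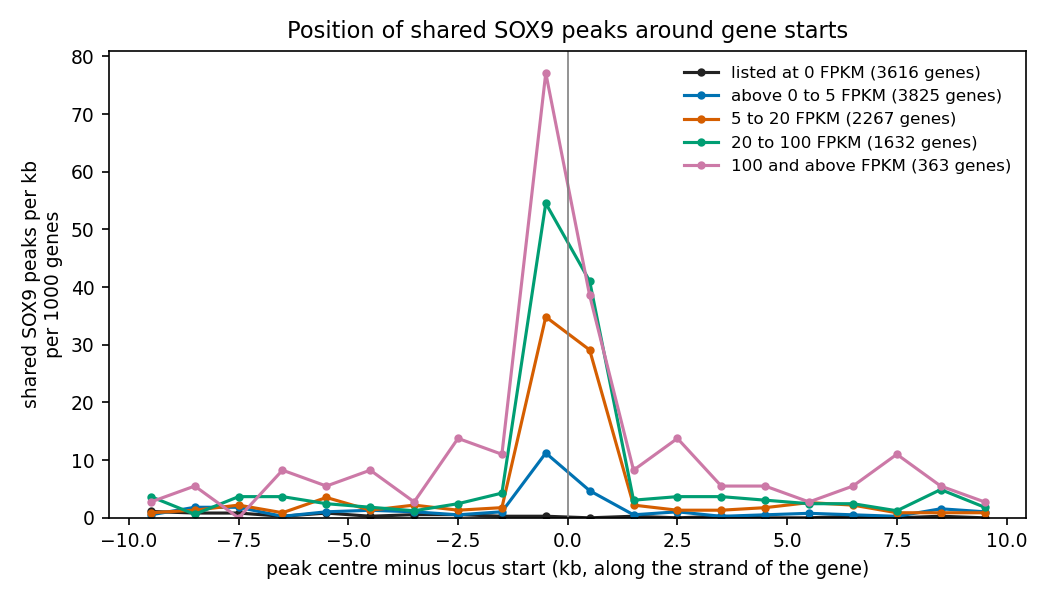
Shared SOX9 peaks per kb and per 1000 genes (y axis) by distance of the peak centre from the locus start along the strand of the gene (x axis, kb), 1 line per group of mean control FPKM. The lines of expressed genes have a maximum in the kilobase upstream of the start, at 77.1 for genes at 100 FPKM and above, and the line of genes listed at 0 has none.

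Start sequences are shown for the most abundant list members with a start peak, and for the most abundant list members without a peak within 10 kb. They are the 250 bases upstream of the RefSeq start (GRCm38.p6, strand of the gene), with CpG pairs in capitals. Krt5 (chr15:101712906-101713155, minus strand) encodes the basal keratin and had 1 peak centred at -958 bp from the start of its deposited locus; Atf3 (chr1:191183334-191183583, minus) and Junb (chr8:84978749-84978998, minus) encode stress-responsive transcription factors and had a peak centred at -127 and -57 bp. Fos (chr12:85473640-85473889, plus), an AP-1 subunit, and Lor (chr3:92083143-92083392, minus), a protein of the cornified envelope, had no shared peak.
Krt5: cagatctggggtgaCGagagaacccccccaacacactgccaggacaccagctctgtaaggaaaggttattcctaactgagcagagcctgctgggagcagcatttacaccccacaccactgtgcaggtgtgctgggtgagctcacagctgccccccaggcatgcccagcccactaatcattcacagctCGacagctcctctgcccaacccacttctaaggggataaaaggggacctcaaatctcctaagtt
Atf3: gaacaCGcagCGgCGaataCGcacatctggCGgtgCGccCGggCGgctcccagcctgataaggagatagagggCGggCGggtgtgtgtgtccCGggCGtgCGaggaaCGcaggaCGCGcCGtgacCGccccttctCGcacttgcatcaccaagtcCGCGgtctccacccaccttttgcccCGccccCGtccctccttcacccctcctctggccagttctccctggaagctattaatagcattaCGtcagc
Junb: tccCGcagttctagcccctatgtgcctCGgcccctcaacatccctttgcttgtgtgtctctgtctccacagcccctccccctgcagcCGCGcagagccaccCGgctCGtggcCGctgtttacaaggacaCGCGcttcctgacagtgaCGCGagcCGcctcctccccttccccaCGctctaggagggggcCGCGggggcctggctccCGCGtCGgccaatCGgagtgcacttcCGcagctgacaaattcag
Fos: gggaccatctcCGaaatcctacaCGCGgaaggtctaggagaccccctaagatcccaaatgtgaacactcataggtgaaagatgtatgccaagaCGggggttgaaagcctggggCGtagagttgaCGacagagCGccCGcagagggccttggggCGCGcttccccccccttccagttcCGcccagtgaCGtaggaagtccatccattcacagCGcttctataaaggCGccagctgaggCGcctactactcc
Lor: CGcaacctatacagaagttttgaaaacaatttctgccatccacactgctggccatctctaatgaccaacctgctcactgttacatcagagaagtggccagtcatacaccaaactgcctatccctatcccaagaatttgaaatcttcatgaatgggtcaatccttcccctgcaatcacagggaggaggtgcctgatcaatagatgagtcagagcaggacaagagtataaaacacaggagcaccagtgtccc
Atf3 holds 24 CpG pairs, Junb 20 and Fos 15, while Krt5 holds 2 and Lor 1.

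Upstream sequence differed with both expression and start occupancy. Among the 10110 own-coordinate genes with a single RefSeq start, the 319 with a start peak had a median of 21 CpG pairs in these 250 bases and a GC content of 64.4%. Genes at 5 FPKM and above with no peak within 10 kb had 16 pairs and 59.6% (2926 genes), and genes listed at 0 with no peak had 2 pairs and 43.2% (3373 genes). Genes of like CpG number still differed by expression: among genes with 20 or more pairs, start peaks were found at 160 of 1292 genes at 5 FPKM and above (12.4%, interval 10.6 to 14.3), 22 of 623 genes between 0 and 5 FPKM (3.53%), and 0 of 112 genes listed at 0, where the interval reaches 3.24%. Among expressed genes with 0 to 4 pairs the share was 3.03% (8 of 264).

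The 6-letter words ACAATG and ACAAAG, which SOX-type HMG boxes are known to favour, were searched on both strands of the same 250 bases upstream. The sequence under the peaks was not searched. A start peak can be centred up to 1 kb to either side of the start, and other peaks lie farther away. The shares below therefore do not show how often a peak holds such a word. At least 1 was found upstream of 11.3% of the 319 genes with a start peak, 19.6% of 372 genes with a peak elsewhere and 25.6% of 9419 genes without a peak, against 25.2% of all 32851 RefSeq promoters. Among genes at 5 FPKM and above these shares were 10.5%, 19.8% and 16.7%. The words are rich in A and T, and the GC content of the groups differs as given above; the part of base composition was not tested. The most abundant genes with a start peak and such a word were Itm2b (chr14:73385290-73385539, minus; 681 and 1107 FPKM, 2 peaks) and Golim4 (chr3:75956950-75957199, minus; 287 and 92.2 FPKM, 2 peaks), shown with the word in capitals.
Itm2b: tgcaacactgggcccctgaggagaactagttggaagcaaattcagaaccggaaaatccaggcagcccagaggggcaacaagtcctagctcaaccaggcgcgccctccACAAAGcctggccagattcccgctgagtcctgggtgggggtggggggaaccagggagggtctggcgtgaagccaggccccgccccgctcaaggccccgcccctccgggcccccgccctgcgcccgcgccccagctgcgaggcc
Golim4: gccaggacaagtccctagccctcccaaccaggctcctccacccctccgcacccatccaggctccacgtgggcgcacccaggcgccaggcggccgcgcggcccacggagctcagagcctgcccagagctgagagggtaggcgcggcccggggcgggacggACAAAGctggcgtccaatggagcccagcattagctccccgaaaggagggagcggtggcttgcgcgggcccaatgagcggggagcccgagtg

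Gene groups of similar expression differed in their occupied share. Their loci differed in length as well. The median locus was 45.9 kb for the keratinocyte adhesion list and 87.1 kb for the bulge transcription factors. It was 4.98 kb for the AP-1 list, 4.66 kb for epidermal differentiation and 3.81 kb for ribosomal proteins. The part of locus length in the list shares was not tested. The lists were drawn up with earlier results of these data known, so their counts describe these genes and no test is given; they are read against 9.51% of all rows and against 17.7% of rows at 5 FPKM and above. All 22 members of the keratinocyte adhesion list stood above 5 FPKM, and 17 were occupied, 12 of the 15 with their own coordinates among them. Jup (plakoglobin, which links cadherins to filaments) stood at 571 and 453 FPKM with 2 peaks, at chr11:100256059-100257090 and chr11:100258904-100259742, inside the locus and at its start. Cdh3 (P-cadherin) stood at 43.2 and 21.8 FPKM with 2 peaks. Krt5 and Krt14, the keratin pair of basal cells, stood at 7157 and 6277 FPKM and at 2002 and 2415 FPKM, each with 1 peak outside the locus, 0.376 and 0.934 kb away. Without a shared peak were Lamb3 (344 and 227 FPKM), Dsg3, Itga6, Itgb1 and Plec.

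The AP-1 and early growth response factors, transcription factors and regulators that cells induce quickly after a stimulus, were all above 5 FPKM, and 10 of 17 were occupied. Junb stood at 448 and 716 FPKM and had 3 shared peaks, all of them also in the IFE list. Zfp36, which destabilises cytokine transcripts, stood at 1188 and 721 FPKM, and Atf3 at 1031 and 837 FPKM, with 1 peak each. Fos, the most abundant of the list at 2950 and 1438 FPKM, had no shared peak within 10 kb: 2 list 1 peaks and no list 2 peak lay there. Egr1 (1187 and 514 FPKM) and Klf4 (424 and 268 FPKM) had list 1 peaks but no list 2 peak. High expression and a shared peak therefore did not always go together within this list.

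Of the 20 bulge transcription factors, 10 were occupied, and 5 of the 12 with their own coordinates. Lhx2, which maintains HFSC quiescence and organisation, stood at 359 and 195 FPKM with 3 peaks on a locus shared by 2 rows. Nfatc1, a keeper of quiescence, stood at 76.7 and 19.8 FPKM with 2 peaks, and Id2, an inhibitor of helix-loop-helix factors, at 314 and 198 FPKM with 2 peaks upstream of its start. Sox9 itself had list 1 and list 2 peaks on its locus (chr11:112643537-112649074), but they did not overlap: list 1 has chr11:112646839-112647463 and list 2 has chr11:112643675-112644425 and chr11:112645931-112646597. The nearest shared peak was 116 kb away, so Sox9 counts as unoccupied by the rule. Id3, Hopx and Tbx1, at 361, 279 and 194 FPKM on average, had none either.

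The bulge surface and niche list was occupied in 5 of 20 rows. Krt15, the keratin by which bulge cells are known and the occupied gene of highest expression, had 1 shared peak 0.448 kb from its locus. Col17a1, a hemidesmosome collagen that anchors HFSCs, stood at 2012 and 1079 FPKM with 1 peak 6.06 kb away. Cd34 (652 and 680 FPKM), the marker of the sort, and Postn (1068 and 950 FPKM), a matrix protein, had no shared peak and lay 43.1 and 136 kb from the nearest.

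In the WNT pathway list 22 of 47 rows were occupied, and 13 of the 34 with their own coordinates. By expression, 14 of the 25 rows at 5 FPKM and above and 2 of the 12 below 1 FPKM were occupied. Among ligands, Wnt10a (13.4 and 13.8 FPKM) and Wnt4 (16.9 and 11.8 FPKM) had 1 peak each, and Wnt10b, at 0.686 and 1.39 FPKM, had 2. Among receptors, Fzd2 (114 and 112 FPKM) had 2 peaks, while Lgr5 (137 and 43.8 FPKM), Lrp5 and Lrp6 had 1 each. The secreted protein Dkk3, at 234 and 168 FPKM, had 3 peaks inside its locus, chr7:119281868-119282819, chr7:119287343-119288622 and chr7:119300963-119301496. The WNT inhibitors Sfrp1 (162 and 138 FPKM) and Sostdc1 (163 and 112 FPKM) had none within 10 kb.

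Other groups with expressed members ranged from 0 of 40 to 6 of 20 rows occupied. The activin, TGF-beta and BMP list had 29 of 35 rows at 5 FPKM and above, and 3 were occupied: Id2, Ski and Fstl3. Of the epidermal differentiation list 21 of 25 rows reached 5 FPKM, and Krtdap (1085 and 4361 FPKM) was the occupied row; Krt10, at 1729 and 3973 FPKM, and Lor, at 341 and 2775 FPKM, were not. Notch and Hedgehog genes were occupied in 2 of 25 rows (Gli2 and Jag2), cell cycle genes in 2 of 25 (Cdkn1a and Cdk2), and Hox genes in 0 of 40, of which 16 reached 5 FPKM. Of the 72 ribosomal protein rows, which have a median of 424 FPKM, 13 (18.1%) were occupied, and of the 77 respiratory chain rows 14 (18.2%), close to the 17.7% of all rows at 5 FPKM and above. The receptor tyrosine kinase feedback list had 6 of 20, among them Lrig3 (40.8 and 35.0 FPKM, 2 peaks) and Met (36.3 and 10.2 FPKM, 1 peak). Keratins were occupied in 7 of 46 rows, Sox genes in 2 of 19 (Sox15 and Sox6), and the sebocyte list in 1 of 10 (Acsbg1, a lipid enzyme, at 63.7 and 89.4 FPKM).

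Lists with few or no rows at 5 FPKM and above had occupied shares from 0% to 16.7%, against 9.51% of all rows. Of 1415 olfactory and vomeronasal receptor rows, 1340 were listed at 0 in both controls and 3 were occupied (0.212%), 2 of these on a locus shared by 19 rows. The fibroblast, endothelial and mural, and immune lists had 0 of 10 each, and the melanocyte list 1 of 10, Mitf, which stood at 39.5 and 15.1 FPKM. Lists of 10 are too small to be told apart from the share of all rows. The immune list also held 3 rows at 5 FPKM and above, Cd74 the highest at 28.4 and 71.0 FPKM. Of 18 genes known as SOX9 targets in cartilage, none reached 1 FPKM on average and 3 (16.7%) were occupied: Sox6 (1.05 and 0.832 FPKM), Col11a2 (0.0810 and 0.00444 FPKM) and Col10a1 (0.0250 FPKM and listed at 0). Col11a2, a cartilage collagen, has coordinates of its own and a peak 7.16 kb away.

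**Figure D5:**
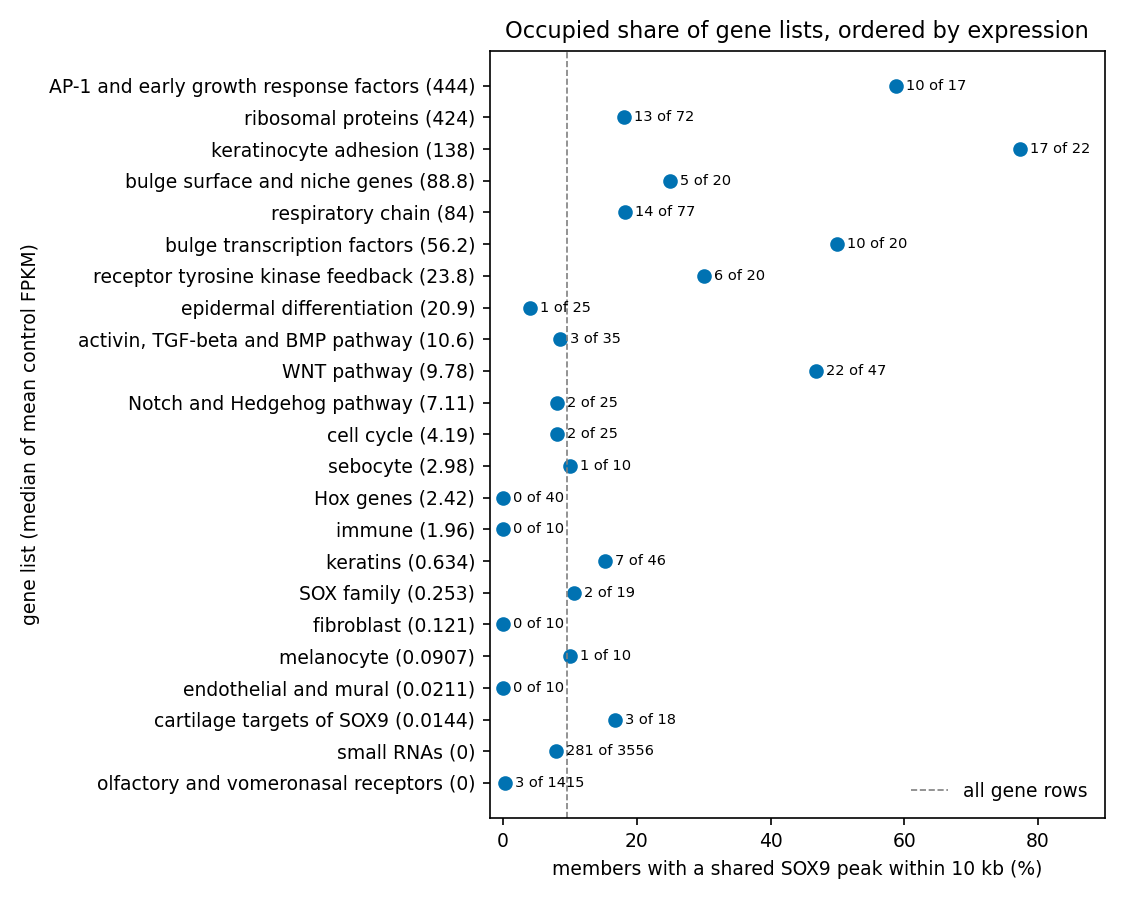
Occupied members (x axis, percent) of 23 gene lists, ordered from bottom to top by the median of mean control FPKM (in parentheses); numbers beside the points are occupied of matched rows, and the dashed line is the 9.51% of all rows. Keratinocyte adhesion (17 of 22) and AP-1 (10 of 17) lie farthest right, and ribosomal proteins (13 of 72) lie farther left at a similar or higher expression. The lists are not matched for locus length.

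The extremes of peak number held different kinds of loci. The 12 rows with most shared peaks, Gm10106 first, all carry chr9:3000281-3038316, a span of 13 rows with 13 shared peaks near the start of the assembled chromosome, and stood between 0.0901 and 0.415 FPKM on average, each listed at 0 in control 1. Gm10800 and Gm10801 on chromosome 2, with loci of 0.755 and 1.85 kb, share the same 4 peaks and are also listed at 0 in control 1. Dense clusters of this kind (4 or more shared peaks within 20 kb) held 28 peaks, and leaving them out moved the difference between genes at 5 FPKM and above and genes listed at 0 to 13.8 points, the same after rounding. Among genes with their own coordinates, Ablim1, an actin-binding protein, stood at 57.5 and 35.6 FPKM with 4 peaks, which overlapped 3 list 2 peaks. In the same group Lmna, encoding lamins A and C, had 3 peaks at 474 and 391 FPKM, and Kank1, a cortical adhesion protein, had 3 at 176 and 152 FPKM. Apoe, the lipid carrier, had 2 at 6996 and 11491 FPKM.

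The most abundant genes without a shared peak included housekeeping and mitochondrial genes. Eef1a1, the translation elongation factor, stood at 5271 and 7935 FPKM, and Rpl13a at 1383 and 3974 FPKM. The mitochondrial gene mt-Co1 stood at 5251 and 5202 FPKM; no shared peak lay on the mitochondrial chromosome. Of genes listed at 0 with coordinates of their own, Sez6, a neuronal membrane protein, had 2 shared peaks, 1 inside its 48.2 kb locus (chr11:77778867-77779617) and 1 beyond it.

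Small RNA genes make up 2830 of the 13646 rows listed at 0, and libraries of this kind recover them poorly, so their FPKM is not a measure of the mature RNA. Of 3556 such rows 281 (7.90%) were occupied, against 9.51% of all rows. Many of the 281 share coordinates, among them rows on the chromosome 8 span of 159 rows with its 12 peaks. Of the 1991 with their own coordinates 32 were occupied, against 5.5% of all genes with their own coordinates. Mir23a, Mir27a and Mir24-2 lie side by side on chromosome 8 (chr8:86732416-86732491, chr8:86732570-86732657 and chr8:86732713-86732820) and share 3 peaks, the nearest between 6.27 and 6.57 kb away. Mir23a stood at 47.3 and 18.8 FPKM, Mir27a at 45.8 and 8.98 FPKM and Mir24-2 at 37.0 and 11.7 FPKM. A shared peak overlapped Mir203 (chr12:113369090-113369166; 1.42 and 7.01 FPKM), known for restraining stemness as keratinocytes leave the basal layer. Their mature RNAs from RefSeq are shown with the seed, bases 2 to 8, in capitals.
mmu-miR-23a-3p: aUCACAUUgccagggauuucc
mmu-miR-27a-3p: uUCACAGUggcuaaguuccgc
mmu-miR-24-3p: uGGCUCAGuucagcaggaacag
mmu-miR-203-3p: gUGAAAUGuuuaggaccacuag
The 4 seeds differ from each other.

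Shared peaks that IFE cells also have, and those they lack, were both more frequent near expressed genes. An IFE peak overlapped 1248 of the 2047 shared peaks (60.97%). Peaks of this kind lay near 0.724% of own-coordinate genes listed at 0 and 13.9% of those at 100 FPKM and above, and the 799 shared peaks without an IFE overlap near 0.409% and 6.49%. All IFE peaks, read against HFSC expression, lay near 2.80% of genes listed at 0, 35.0% from 20 to 100 FPKM and 34.3% at 100 FPKM and above, where 14.1% of all such genes had one. With a single IFE library, this has no replicate check.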

How the data were processed

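SOX9 ChIP-seq peaks (2 HFSC lists, 1 IFE list) and gene FPKM (2 control columns of 1 table) were used. FPKM values were computed by the authors, per the file headers; build mm9 and the tools Cufflinks 1.0.3, TopHat2, TopHat and Bowtie are listed in the submitters' processing notes, and the sources used here do not name the peak caller. Peaks were deposited by the authors as positions alone, 1 list per library; their units carry no height or score. The 3 input libraries and the knockout columns were not used.

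Peaks were joined to the coordinates of all 37298 rows in Python 3.11.15 (pandas 2.3.3, numpy 2.4.6, scipy 1.17.1); the join was tested on simulated intervals. Genes were binned at 0.1, 1, 5, 20 and 100 mean FPKM, with genes listed at 0 in both controls apart. No low-value filter was applied; log2 values use a pseudocount of 1. Read depth is unknown, so precision is given by 95% intervals over genes. Named genes were Sox9, the 12 rows with most peaks, the 10 most expressed occupied and unoccupied genes, the 6 genes at 0 with most peaks, and up to 3 occupied and 2 unoccupied members of each of 23 lists; the same rules were repeated for genes with their own coordinates, and other genes named were chosen after their values were seen. A gene that the rules select is not reported here. Members and lists were chosen with earlier results of these data known. Alternatives were other windows, peak lists, overlaps, assignments, gene filters, expression thresholds and leaving out each control. Strand, biotype, promoters and miRNAs come from RefSeq (GRCm38.p6). Rows were matched to RefSeq genes on the same chromosome by Ensembl ID, then by symbol, then by an unambiguous synonym. No coordinates of that build were joined with mm9 peaks.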

Additional observations from a re-analysis of the deposited data

How the results depend on the processing

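In all 66 recalculations the sign was that of the main value. The difference in occupied share (13.8 points, 5 FPKM and above minus listed at 0) was 10.8, 12.6 and 20.7 with windows of 0, 5 and 50 kb, 27.6 with list 1, 21.7 with list 2, 13.0 with reciprocal overlap, 12.001 with the nearest locus alone, 11.1 within 10 kb of either end, 11.9 and 16.8 with expression from 1 and 20 FPKM, and 12.9 to 13.6 when either control was left out. Alternatives added after seeing the data gave 12.8 for own coordinates, 17.7 for protein-coding genes and 30.2 for IFE peaks. The difference in peaks per gene (0.157) was, in the same order, 0.114, 0.138, 0.276, 0.447, 0.264, 0.143, 0.129, 0.124, 0.126 and 0.194, with 0.144 to 0.149 without a control; it was 0.0993 for loci of 2 kb or longer, 0.149 for own coordinates, 0.175 for each locus once, 0.251 for protein-coding genes and 0.406 for IFE peaks. The length-standardised difference (11.7) was, in the same order, 9.0015, 10.6, 16.9, 22.8, 17.4, 10.98, 10.1, 8.61, 9.89 and 15.6, with 11.1 to 11.3 without a control; it was 14.9 for loci of 2 kb or longer, 11.5 with the low group taken as all genes below 0.1 FPKM, 10.3 for own coordinates, 16.7 for protein-coding genes, 11.5 without clustered peaks and 24.0 for IFE peaks. The log2 difference (1.42) was 2.35 and 0.84 with pseudocounts of 0.1 and 5, 0.54 for genes of 1 FPKM or more, 2.32 for own coordinates, and 1.34 to 1.47 without a control. The cause of these moves was not tested. No paired analysis was possible because the results come from no test and no genotypes are compared. Peak lists without heights, unknown read depth and 2 libraries of each kind limit all values.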

Other observations

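Occupancy of expressed genes also differed by chromosome. Among own-coordinate genes at 5 FPKM and above, the occupied share on the autosomes ran from 10.03% (33 of 329 genes, chromosome 3) to 20.3% (94 of 462, chromosome 7). On the X chromosome it was 1.75% (5 of 285 genes, exact 95% interval 0.572 to 4.05), and 15 shared peaks lay there in all, 4 of them in a single cluster near 166 Mb. Both ChIP libraries came from females. Of 1025 X-linked genes listed at 0, 1 was occupied. Why the X chromosome stands apart was not tested.

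Shared peaks far from any locus overlapped IFE peaks less often than peaks near expressed genes. Of the 406 shared peaks with no locus within 10 kb, 164 (40.4%, interval 35.6 to 45.3) overlapped an IFE peak. Where the most expressed gene within 10 kb stood from 5 to 20 FPKM the share was 69.2% (306 of 442, interval 64.7 to 73.5), and at 100 FPKM and above it was 67.2% (197 of 293). Median widths were 774.5, 712.5 and 737 bp.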
